A study of Mus musculus with 24 samples.

Results

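The genes described here are 9 regulators of developmental timing, namely the RNA-binding proteins Lin28a, Lin28b, Trim71 and L1td1, the chromatin proteins Hmga1 and Hmga2, and the RNA-binding proteins Igf2bp1, Igf2bp2 and Igf2bp3. They were chosen by gene symbol and are 9 of the 49705 entries of the expression table. All 9 passed the filter on low values, which left 21005 genes for the tests.

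RNA was measured in 24 libraries of optic vesicle (OV) organoids, with 3 replicates in each of 8 groups. All groups came from the mouse embryonic stem cell (mESC) line Rx-GFP K/I EB5, in which GFP has been knocked into the locus of Rax, an early homeobox gene of the eye field. On day 0, untreated by the labels, 4500 cells per well were seeded, and Matrigel was added to 2% on day 1. The labels give a medium with 1.5% KOSR, a serum replacement, whereas the methods name a chemically defined medium for the initial organoids, so the medium of these cultures is not settled. On days 0, 1, 2 and 3 the live single cells were not split further, and on days 4 and 5 they were sorted into GFP-positive and GFP-negative cells, each sample from 24 pooled organoids. The methods describe this sort as a split of the samples, so a GFP-positive and a GFP-negative library can share a pool of organoids. Which libraries share a pool is not given, and the main tests treated them as independent. The gate followed Rax RNA: on day 4 the normalized count of Rax was 9559 ± 436 (SD, n = 3) in GFP-positive and 975 ± 38 (SD, n = 3) in GFP-negative cells, while day 5 had 8608 ± 464 in the former and 447 ± 61 in the latter (SD, n = 3 for both). By the methods, the GFP-negative gate also took in cells with little GFP. The GFP-negative cells held Rax RNA above the day 3 level of 115 ± 36 (SD, n = 3). These are bulk samples, in which fewer cells of a type and less RNA per cell cannot be told apart.

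Lin28a and Lin28b bind precursors of the let-7 microRNAs and block their maturation, and let-7 in turn represses many genes of embryonic cells. Mature let-7 is known to rise as stem cells differentiate, and the balance of Lin28 and let-7 times transitions in many lineages, the developing retina and brain among them. Hmga2 and the Igf2bp genes are widely described let-7 targets in neural and other progenitors. Hmga proteins bind AT-rich DNA and alter chromatin, while Igf2bp proteins bind and stabilise or localise messenger RNAs. Trim71 is a ubiquitin ligase and RNA-binding protein that is also a classic let-7 target, and L1td1 is an RNA-binding protein of pluripotent cells.

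The sequence feature examined in these genes is a match to the let-7 seed. RefSeq lists 9 mature 5p sequences of the let-7 and miR-98 family on mm10, and all 9 carry the same seed at bases 2 to 8, shown in capitals for 4 members that differ elsewhere, 5′ to 3′:
let-7a-5p: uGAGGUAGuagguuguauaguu
let-7d-5p: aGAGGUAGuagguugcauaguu
let-7g-5p: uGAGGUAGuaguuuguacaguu
miR-98-5p: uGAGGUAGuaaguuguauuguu

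Lin28 proteins are known to contact a GGAG motif in the loop region of let-7 hairpins. These letters begin between the 5p product and the 3p product in 9 of the 12 hairpins. The hairpin of let-7g (chr9:106178840-106178927, plus strand, mm10) holds the motif, in capitals, and that of let-7b (chr15:85707319-85707403, plus strand, mm10) does not hold it there:
Mirlet7g: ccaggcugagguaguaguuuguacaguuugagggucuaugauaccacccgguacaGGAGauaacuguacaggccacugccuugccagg
Mirlet7b: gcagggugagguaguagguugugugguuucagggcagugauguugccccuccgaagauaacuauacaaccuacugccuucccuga

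The seed pairs with the letters CTACCTC, and an A after them extends the match to 8 letters. This motif was searched on the transcript strand in the longest annotated 3′ UTR of each gene (GENCODE M21). It occurred in 1896 of 21027 UTRs (9.02%) and in 8 of the 9 genes, L1td1 being the exception with a UTR of 364 bases. Hmga2, the Igf2bp genes and Trim71 are described let-7 targets, as given above, so this count is a description and not a test. Trim71, Lin28b, Hmga2 and Igf2bp1 had 4 matches each, Lin28a had 2, and Hmga1, Igf2bp2 and Igf2bp3 had 1 each. Longer UTRs hold more matches, so each gene was set beside UTRs within 20% of its own length: at least 4 matches occurred in 0.0891% of UTRs as long as that of Hmga2, in 0.158% for Lin28b, in 0.178% for Igf2bp1 and in 0.379% for Trim71. At least 2 matches occurred in 2.06% of UTRs like that of Lin28a. By contrast, at least 1 match occurred in 8.05% of UTRs like that of Hmga1, in 12.0% for Igf2bp2 and in 13.3% for Igf2bp3. The match nearest the stop codon is given for each of the 8 genes, with the pairing letters in capitals:
Lin28a, chr4:134005178-134005207, minus strand: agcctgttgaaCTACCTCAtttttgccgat
Lin28b, chr10:45381011-45381040, minus strand: gggcgggaagtCTACCTCAtgcaagcacag
Trim71, chr9:114512461-114512490, minus strand: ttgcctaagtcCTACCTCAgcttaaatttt
Hmga1, chr17:27563281-27563310, plus strand: ctgttcacaaaCTACCTCtggacggttgtg
Hmga2, chr10:120364213-120364242, minus strand: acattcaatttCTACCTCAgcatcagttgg
Igf2bp1, chr11:95961767-95961796, minus strand: tgcgaagtaaaCTACCTCAaggtgtgaagt
Igf2bp2, chr16:22059462-22059491, minus strand: acaaataaaagCTACCTCAggtgtttttta
Igf2bp3, chr6:49086776-49086805, minus strand: tttttactcaaCTACCTCAggtattcagta

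A letter match is a description of the reference sequence and was not measured as a site in these cells. All coordinates are on mm10.

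**Figure D1:**
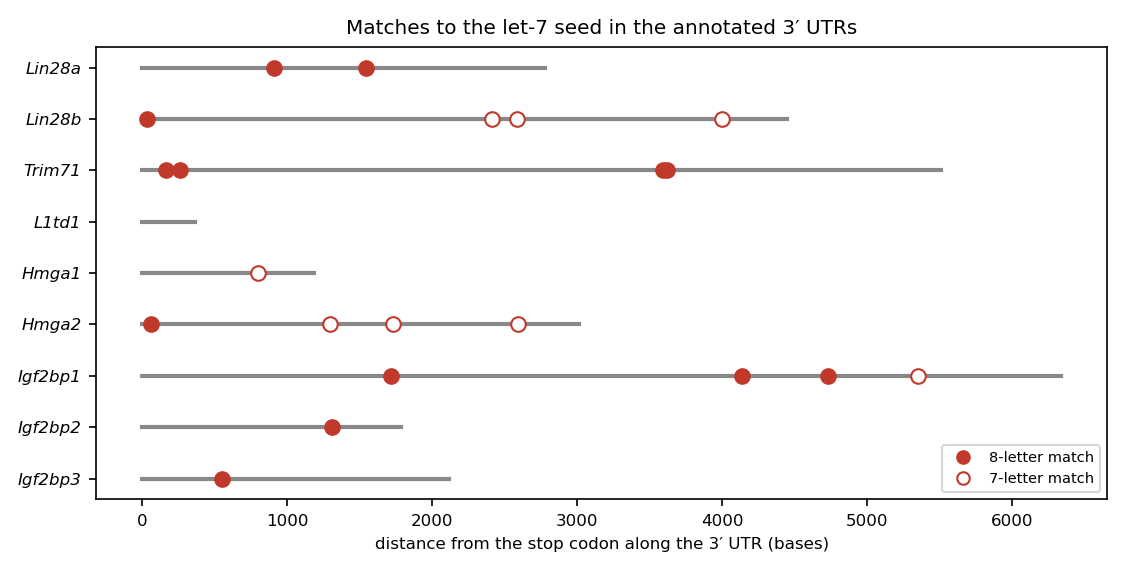
Each grey line is the annotated 3′ UTR of a gene, drawn from the stop codon in bases, and circles mark matches to the let-7 seed, filled for 8 letters and open for 7. Trim71, Lin28b, Hmga2 and Igf2bp1 have 4 matches each, and L1td1 has none.

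Mature let-7 was not measured, since these are libraries of polyA RNA. The 12 let-7 and miR-98 precursor entries of the table were at 0 in 278 of 288 values, 7 entries were at 0 in every library, and the highest value was a normalized count of 2.29, so the levels of let-7 were not detectable here.

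The values are normalized counts, the authors' kallisto estimates divided by DESeq2 factors. Their totals lay between 39849111 and 51587535 per library, and the estimated depth lay between 37220444 and 54346935 reads, so that L1td1 in the day 5 GFP-positive cells, with a mean normalized count of 55.5, had the fewest reads of the 9 genes behind it. Replicates of a group had rank correlations of 0.979 to 0.993 across genes, except for the pairs with day 0 replicate 1, at 0.953 and 0.954. That library had the lowest value of its group for 7 of the 9 genes, so fold changes and family shares of the 9 genes against day 0 are given also without it. Changes are limma log2 fold changes of log2(value + 1) with their standard error (SE), fitted over all 24 libraries and adjusted over the 21005 genes by the Benjamini-Hochberg method. "Rose" and "fell" are used for an adjusted p under 0.05, and a change is called large where the adjusted p is also under 0.001 and the log2 fold change exceeds 1.5 in size. All groups share 1 estimate of the spread, so leaving out day 0 replicate 1 also changed the SE of tests without day 0. That of Igf2bp3 went from 0.160 to 0.095. Without that library Igf2bp3 passed from day 1 to day 2 (adjusted p = 0.00247) and from day 3 to day 4 GFP-negative cells (adjusted p = 0.00119). Igf2bp1 then passed from day 2 to day 3 (adjusted p = 0.0287), and Hmga2 from day 4 to day 5 in GFP-negative cells (adjusted p = 0.0238).

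The 9 genes did not move as a block over the differentiation (see the plot of levels by group). Between day 0 and day 5 GFP-positive cells, Lin28a, Lin28b, Hmga2, Igf2bp2 and Igf2bp3 rose, L1td1, Trim71 and Igf2bp1 fell, and Hmga1 did not pass the test. That is 8 of 9, where 61.4% of all genes tested passed. Large changes were 5 of 9, where 26.2% of all genes had them, namely those of Lin28b, Hmga2, Igf2bp2, Igf2bp3 and L1td1. In day 5 GFP-negative cells the same 8 genes passed in the same directions (59.3% of all genes), 4 of them with a large change (21.7% of all genes). Both comparisons share the day 0 libraries. Without day 0 replicate 1 the counts against day 0 were 8 (64.7% of all genes) for GFP-positive and 9 (62.2%) for GFP-negative cells. The added gene was Hmga1, at -0.44 ± 0.15 (log2 fold change ± SE, adjusted p = 0.0172).

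**Figure D2:**
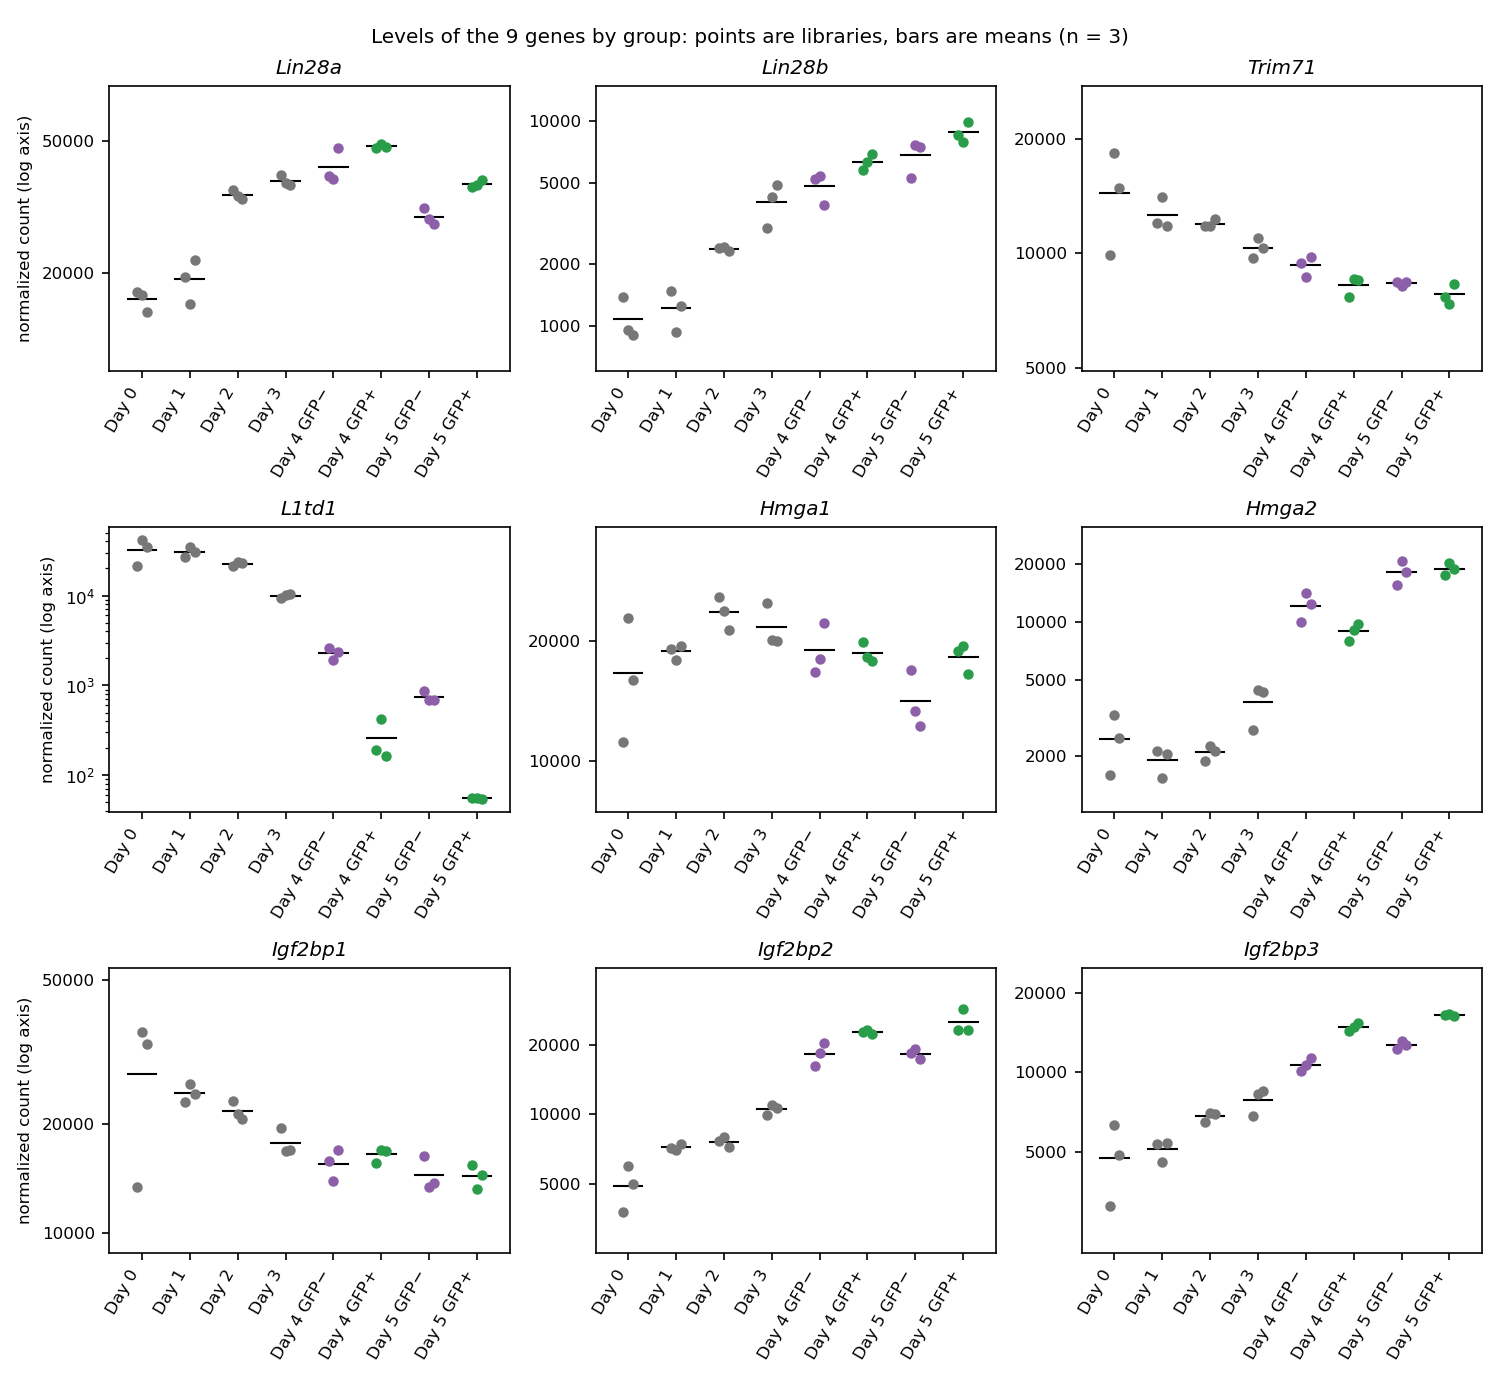
Normalized count of each gene on a log axis by group, with a point for each library and a bar for the mean of 3. Grey marks unsorted cells, purple GFP-negative and green GFP-positive cells. Lin28b, Hmga2, Igf2bp2 and Igf2bp3 end above day 0, L1td1 falls to a mean of 55.5 in day 5 GFP-positive cells, and the libraries of Hmga1 overlap between neighbouring groups of its order.

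Lin28a (chromosome 4, 134003330 to 134018841, minus strand) was present throughout and had its highest level on day 4. Its normalized counts were 17565, 17146 and 15193 on day 0 and 19467, 16157 and 21812 on day 1. On day 2 they were 35656, 34131 and 33338, and on day 3 39580, 37320 and 36880. The day 2 libraries were all above those of days 0 and 1. Lin28a rose by 0.85 ± 0.11 (log2 fold change ± SE, adjusted p = 1.38e-05) from day 1 to day 2. In day 4 GFP-positive cells the counts were 47748, 48908 and 48067, a further rise of 0.35 ± 0.11 over day 3 (adjusted p = 0.0151). GFP-negative cells of that day, at 39208, 38555 and 47815, overlapped both day 3 and the GFP-positive cells. By day 5 the counts had come down to 36435, 36843 and 38157 in GFP-positive and 31360, 29010 and 28129 in GFP-negative cells. The step from day 4 to day 5 was -0.50 ± 0.11 (adjusted p = 0.00441) in GFP-negative and -0.38 ± 0.11 (adjusted p = 0.0296) in GFP-positive cells. The GFP-positive step had adjusted p-values from 0.0576 to 0.0987 when any of the 6 libraries compared was left out.

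Lin28b (chromosome 10, 45376620 to 45486395, minus strand), the paralog of Lin28a, began low, and its group means went up from day 1 on. Normalized counts of Lin28b were 1385, 959 and 910 on day 0, 1483, 938 and 1251 on day 1 and 2392, 2421 and 2324 on day 2. They were 3002, 4287 and 4873 on day 3. Lin28b rose by 0.98 ± 0.20 (adjusted p = 0.00145) from day 1 to day 2 and by 0.74 ± 0.20 (adjusted p = 0.0157) from day 2 to day 3. On day 4 the counts were 5792, 6322 and 6894 in GFP-positive and 5217, 5379 and 3908 in GFP-negative cells. On day 5 they were 8571, 7949 and 9884 in GFP-positive and 5303, 7657 and 7478 in GFP-negative cells. Neither the step from day 4 to day 5 (0.47 ± 0.20, adjusted p = 0.168 in GFP-positive, and 0.49 ± 0.20, adjusted p = 0.134 in GFP-negative cells) nor that from day 3 to day 4 GFP-negative cells (0.27 ± 0.20, adjusted p = 0.417) passed. The libraries of the day 4 to day 5 step in GFP-positive cells did not overlap. In a fit of those groups alone its adjusted p was 0.0143. The GFP-positive libraries were above the GFP-negative ones on both days, although the differences, 0.40 ± 0.20 (adjusted p = 0.213) and 0.38 ± 0.20 (adjusted p = 0.234), did not pass the test. Against day 0, day 5 GFP-positive cells were higher by 3.04 ± 0.20 (adjusted p = 2.17e-11) and GFP-negative cells by 2.66 ± 0.20 (adjusted p = 3.14e-10). Without day 0 replicate 1 these differences were 3.23 and 2.85.

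In levels per kilobase of the longest coding transcript, Lin28a stayed the more abundant of the pair. Per kb, Lin28a went from 4746 on day 0 to 10598 in day 5 GFP-positive cells, and Lin28b from 201 to 1629. The share of Lin28b in their sum was 4.04% ± 0.73 (SD, n = 3) on day 0, 4.30% ± 0.12 (SD, n = 3) on day 2, and the GFP-positive fraction of day 4 had 7.85% ± 0.62 (SD, n = 3). Without replicate 1, the day 0 share was 3.50% and 3.74% in the other libraries. On day 5 it was 13.3% ± 1.1 (SD, n = 3) in GFP-positive and 13.1% ± 2.8 (SD, n = 3) in GFP-negative cells, and the ranges of these fractions overlapped.

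Trim71 (chromosome 9, 114507133 to 114564369, minus strand), like Lin28b with 4 let-7 seed matches, moved in the other direction and by less. Normalized counts of Trim71 were 9916, 18348 and 14811 on day 0, and they were 7687, 7366 and 8317 in day 5 GFP-positive cells. In the groups between, the means went from 12611 ± 1266 (SD, n = 3) on day 1 to 10338 ± 615 (SD, n = 3) on day 3, and the GFP-positive fraction of day 4 had 8251 ± 490 (SD, n = 3). No single daily step passed with all libraries in the fit. The step from day 3 to day 4 GFP-positive cells, in which the libraries did not overlap, was -0.33 ± 0.14 (adjusted p = 0.0837). It passed without day 0 replicate 1 (adjusted p = 0.00415), without day 0 replicate 2 (adjusted p = 0.0294) and in a fit of the groups compared alone (adjusted p = 0.0142). Against day 0, Trim71 fell by 0.84 ± 0.14 on the log2 scale in day 5 GFP-positive cells (adjusted p = 3.3e-05) and by 0.74 ± 0.14 in GFP-negative cells (adjusted p = 0.000157). Without day 0 replicate 1, its lowest day 0 library, these differences were -1.08 and -0.98.

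L1td1 (chromosome 4, 98726734 to 98738480, plus strand) had the widest range of the 9 genes, 584-fold between the means of its highest and lowest group. Its normalized counts were 21211, 41489 and 34546 on day 0 and 26669, 34489 and 30610 on day 1. They were 21110, 23555 and 22847 on day 2 and 9348, 10059 and 10372 on day 3. From day 2 to day 3 its log2 fold change was -1.18 ± 0.25 (adjusted p = 0.00342). The step before it, in which the libraries did not overlap either, was -0.44 ± 0.25 (adjusted p = 0.284) with all libraries in the fit and had an adjusted p of 0.00608 in a fit of those groups alone. After sorting, the counts were 194, 427 and 163 in day 4 GFP-positive and 2619, 1906 and 2332 in day 4 GFP-negative cells. On day 5 they were 55.7, 55.8 and 54.9 in GFP-positive and 863, 683 and 693 in GFP-negative cells. Every group from day 2 on was apart from the next in the order of levels. The step from day 3 to day 4 was -5.37 ± 0.25 (adjusted p = 8.01e-13) in GFP-positive and -2.13 ± 0.25 (adjusted p = 3.76e-06) in GFP-negative cells, both large changes. From day 4 to day 5 L1td1 changed by -2.08 ± 0.25 (adjusted p = 8.7e-06) in GFP-positive and -1.61 ± 0.25 (adjusted p = 0.000212) in GFP-negative cells. The last of these was close to the threshold for a large change and lost it when day 4 GFP-negative replicate 1 or 3 or day 5 GFP-negative replicate 2 or 3 was left out, as the adjusted p then lay above 0.001, at most 0.00245, while the difference stayed between -1.73 and -1.51 over all fits with 1 library left out. Against day 0, day 5 GFP-positive cells were at -9.11 ± 0.25 (adjusted p = 4.28e-17) and GFP-negative cells at -5.39 ± 0.25 (adjusted p = 2.62e-13), and at -9.39 and -5.67 without day 0 replicate 1.

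Markers of naive and core pluripotency moved beside L1td1 (see the plot of L1td1 beside the pluripotency genes). The list held Nanog, Pou5f1, Zfp42, Esrrb, Klf4, Tfcp2l1 and Dppa5a. Their summed normalized count lay between 142519 and 182612 on day 0, between 36946 and 48020 on day 3, and between 14155 and 17065 in day 4 GFP-negative cells. In GFP-positive cells it lay between 1300 and 2618 on day 4 and between 477 and 618 on day 5. On both days the GFP-positive fraction was lower for all 7, each with a large change (3.96% of all genes had one on day 4 and 5.01% on day 5), and none was at 0 in any group. Pou5f1, for example, had a mean of 7087 ± 795 (SD, n = 3) in day 4 GFP-negative and 792 ± 223 (SD, n = 3) in GFP-positive cells. Genes of primed pluripotency, the later state on the way to lineages (Fgf5, Otx2, Dnmt3b and Pou3f1), took another course. On day 3 against day 0, where L1td1 fell, 4 of 4 were higher (43.6% of all genes passed; median 2.36, and 2.03 without day 0 replicate 1). Their summed count lay between 144930 and 167091 on day 3. Between the gates 0 were higher and 2 lower in GFP-positive cells on day 4 (15.7% of all genes), and on day 5 1, Otx2, was higher by 0.70 ± 0.10 and 2, Fgf5 and Pou3f1, were lower (16.0%). The day 5 sums lay between 22399 and 26520 in GFP-positive and between 21242 and 21778 in GFP-negative cells. The part of either list in the difference of L1td1 was not tested.

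**Figure D3:**
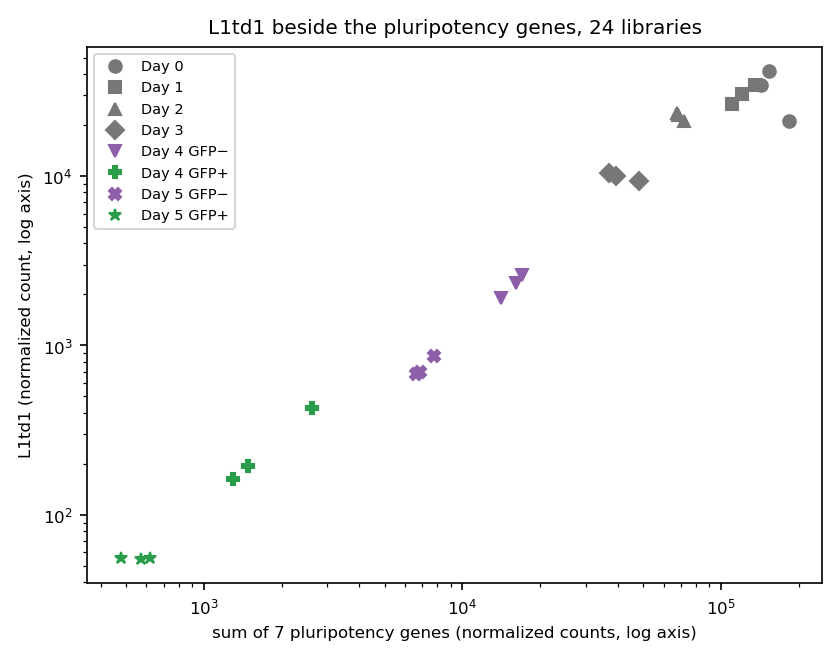
Normalized count of L1td1 against the summed normalized count of 7 pluripotency genes, both on log axes, with a point for each of the 24 libraries. The day 5 GFP-positive libraries have the lowest values on both axes, and the GFP-negative libraries of days 4 and 5 lie between them and the unsorted cells.

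Hmga2 (chromosome 10, 120361275 to 120476469, minus strand), a chromatin protein of stem and progenitor cells, changed late. Normalized counts of Hmga2 were 1600, 3258 and 2474 on day 0, 2110, 1536 and 2046 on day 1 and 1889, 2262 and 2112 on day 2, and these groups overlapped. On day 3 they were 2715, 4422 and 4324, a rise of 0.84 ± 0.21 over day 2 (adjusted p = 0.0113). On day 4 they were 9951, 14073 and 12411 in GFP-negative and 7961, 9055 and 9718 in GFP-positive cells. These were rises of 1.69 ± 0.21 (adjusted p = 7.81e-06) and 1.25 ± 0.21 (adjusted p = 7.64e-05) over day 3. The GFP-negative rise was a large change, but not without day 3 replicate 1, the lowest library of that day. On day 5 the counts were 15516, 20781 and 18159 in GFP-negative and 17433, 20193 and 18769 in GFP-positive cells. Hmga2 rose by 1.08 ± 0.21 (adjusted p = 0.00175) from day 4 to day 5 in GFP-positive cells, and in GFP-negative cells the difference was 0.58 ± 0.21 (adjusted p = 0.0924). Against day 0 it was higher by 3.00 ± 0.21 (adjusted p = 9.44e-11) in day 5 GFP-positive and by 2.94 ± 0.21 (adjusted p = 2.13e-10) in GFP-negative cells, and by 2.72 and 2.67 without day 0 replicate 1.

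Hmga1 (chromosome 17, 27556497 to 27563674, plus strand), its paralog, had no clear course. The group means lay between 14188 ± 2459 (SD, n = 3) in day 5 GFP-negative cells and 23650 ± 2260 (SD, n = 3) on day 2, and each group overlapped the next in the order of levels. On day 0 its counts were 11191, 22879 and 15966, so that this group alone covered most of the range of the time course. With all libraries in the fit, none of its 13 tests had an adjusted p under 0.05. The lowest was 0.0616 for day 3 against day 0, a difference of 0.43 ± 0.18, and the day 0 libraries decided it. Without day 0 replicate 2, the highest, Hmga1 was higher by 0.69 ± 0.16 (adjusted p = 0.00178) on day 3, and without replicate 1, the lowest, by 0.18 ± 0.15 (adjusted p = 0.364). Quantile normalization gave 0.53 ± 0.17 (adjusted p = 0.0148). The day 2 libraries were all above those of day 1, and the day 4 GFP-positive ones all below those of day 3. From day 1 to day 2 the difference was 0.32 ± 0.18 (adjusted p = 0.269), with an adjusted p of 0.0106 in those groups alone. From day 4 to day 5 in GFP-negative cells it was -0.43 ± 0.18 (adjusted p = 0.163). Without day 0 replicate 1 that adjusted p was 0.0379. Hmga1 shares reads with a near-identical copy, Hmga1b: 62.1% of its 31-letter words occur in Hmga1b, and 92.7% of those of Hmga1b occur in Hmga1. How the authors' counting split them is uncertain, and Hmga1b held 71.3% to 73.0% of their summed count in every group mean. Their sum, a setting added after the data were seen, gave no adjusted p under 0.05 in any of the 13 tests either.

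The balance of the Hmga genes shifted with Hmga2. Per kb, Hmga2 was 7.16% ± 0.32 (SD, n = 3) of Hmga1 plus Hmga2 on day 0 (6.96% and 7.53% without replicate 1) and 4.47% ± 0.67 (SD, n = 3) on day 2. On day 5 it was 35.1% ± 2.4 (SD, n = 3) in GFP-positive and 40.4% ± 6.9 (SD, n = 3) in GFP-negative cells. With Hmga1b in the sum the shares were lower, 1.76% ± 0.20 (SD, n = 3) on day 0 (1.79% and 1.95% without replicate 1), and the GFP-positive fraction of day 5 had 11.6% ± 0.66 (SD, n = 3).

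Igf2bp1 (chromosome 11, 95957163 to 96005940, minus strand) fell while its relatives rose. Its normalized counts were 13434, 36005 and 33235 on day 0, and they were 15397, 13265 and 14453 in day 5 GFP-positive and 16354, 13437 and 13773 in GFP-negative cells. The day 0 libraries ranged so widely that they overlapped day 5. Against day 0, Igf2bp1 fell by 0.82 ± 0.23 on the log2 scale in day 5 GFP-positive cells (adjusted p = 0.0036) and by 0.80 ± 0.23 in GFP-negative cells (adjusted p = 0.00433). Without day 0 replicate 1, the library at 13434, these differences were -1.27 and -1.26 and the groups no longer overlapped. Fitted on the groups compared alone, the adjusted p was 0.112 and 0.121.

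Igf2bp2 (chromosome 16, 22059009 to 22163299, minus strand) was the one gene that passed the test from day 0 to day 1 with all libraries in the fit. Its normalized counts were 3777, 5989 and 4972 on day 0 and 7181, 6974 and 7417 on day 1, a rise of 0.57 ± 0.13 (adjusted p = 0.00552) in groups that did not overlap. In a fit of these groups alone its adjusted p was 0.283. Day 2, at 7640, 7984 and 7239, overlapped day 1. On day 3 the counts were 9958, 10975 and 10601, and on day 4 22595, 23177 and 22311 in GFP-positive and 16141, 18495 and 20300 in GFP-negative cells. Igf2bp2 rose by 0.46 ± 0.13 (adjusted p = 0.0188) from day 2 to day 3, by 1.11 ± 0.13 (adjusted p = 5.03e-07) from day 3 to day 4 GFP-positive and by 0.80 ± 0.13 (adjusted p = 0.000131) to GFP-negative cells. On day 5 the counts were 23198, 28636 and 23265 in GFP-positive and 18391, 19192 and 17324 in GFP-negative cells. Against day 0 the day 5 GFP-positive cells were higher by 2.37 ± 0.13 (adjusted p = 1.09e-12), and by 2.19 without day 0 replicate 1. The GFP-negative cells were higher by 1.92 ± 0.13 (adjusted p = 5.41e-11), and by 1.74 without that library.

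Igf2bp3 (chromosome 6, 49085223 to 49214957, minus strand) followed the same direction with a smaller range. Its normalized counts were 3095, 6280 and 4841 on day 0, 6797, 8284 and 8453 on day 3, and 14325, 14910 and 15355 in day 4 GFP-positive cells. The day 4 GFP-positive libraries were all above those of day 3, a rise of 0.93 ± 0.16 (adjusted p = 8.02e-05). Day 4 GFP-negative cells had 10130, 10625 and 11305, above day 3 in each library, with a difference of 0.45 ± 0.16 (adjusted p = 0.0546). On day 5 the counts were 16449, 16596 and 16301 in GFP-positive and 12228, 13090 and 12650 in GFP-negative cells. Against day 0, day 5 GFP-positive cells were higher by 1.85 ± 0.16 (adjusted p = 1.88e-09), and by 1.58 without day 0 replicate 1. The gene overlaps Malsu1 on the opposite strand, and 18.5% of its 31-letter words occur on the opposite strand of other transcripts. Whether strand was used in the counting is not stated, so part of its count could belong to Malsu1, whose own highest value was 3133.

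Within the Igf2bp family the leading gene changed, as the plot of family shares shows. Per kb, Igf2bp1 held 56.8% ± 7.1 (SD, n = 3) of the sum of the 3 genes on day 0 and 32.1% ± 3.5 (SD, n = 3) on day 3. It held 14.5% ± 1.8 (SD, n = 3) in day 5 GFP-positive cells. Igf2bp2 went from 23.6% ± 5.2 to 40.7% ± 1.1 and 53.7% ± 3.4 in the same groups (SD, n = 3 each), and Igf2bp3 from 19.7% ± 2.1 to 27.2% ± 2.6 and 31.8% ± 1.6 (SD, n = 3 each). Without replicate 1, Igf2bp1 held 59.0% and 62.4% in the other day 0 libraries, Igf2bp2 21.1% and 20.1%, and Igf2bp3 19.9% and 17.5%. On day 0 the lowest share of Igf2bp1 (48.8%) was above the highest of Igf2bp2 (29.5%), and from day 3 on the order of these genes was turned in every library. Their sum per kb was 5640 ± 2091 (SD, n = 3) on day 0, with 3284 in replicate 1 and 7279 and 6356 in the others, and the GFP-positive fraction of day 5 had 11921 ± 718 (SD, n = 3).

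**Figure D4:**
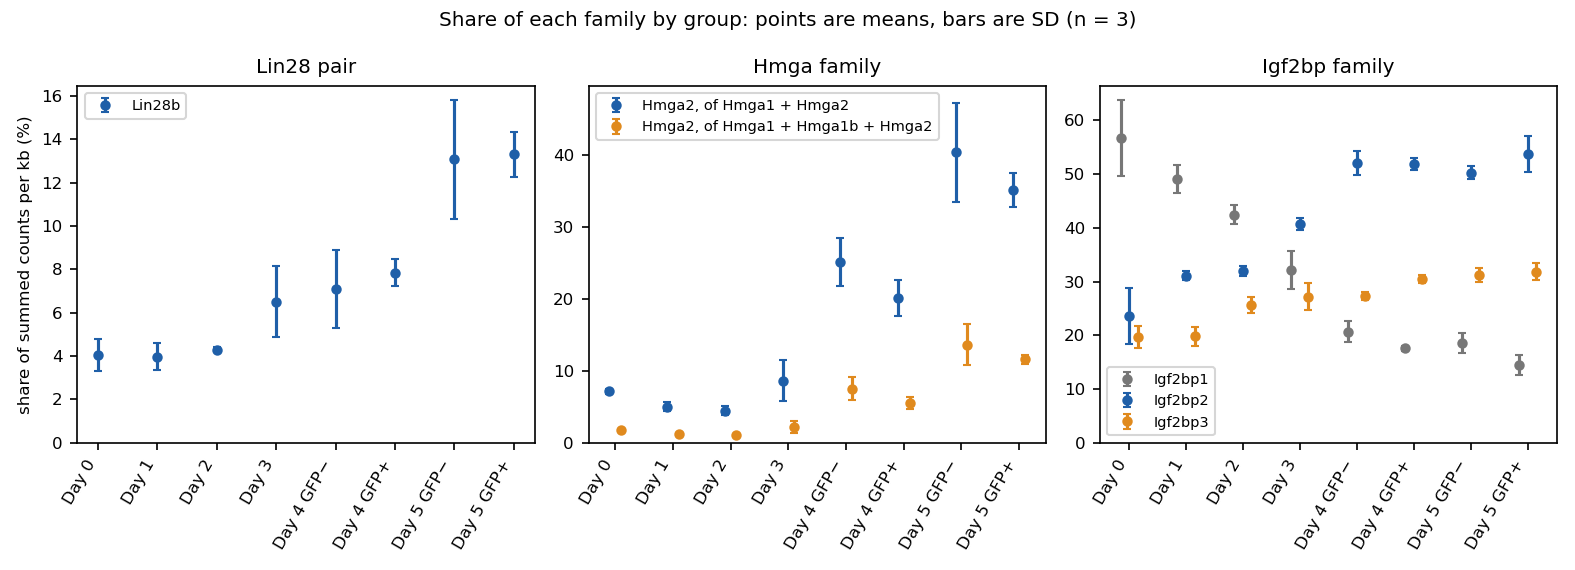
Share of each gene in the summed counts per kb of its family, in percent, by group, with points for the mean and bars for the SD of 3 libraries. Lin28b goes from 4.04% on day 0 to 13.3% in day 5 GFP-positive cells, Hmga2 from 7.16% to 35.1% of Hmga1 plus Hmga2, and Igf2bp1 from 56.8% to 14.5%.

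The daily steps show when these changes fell. From day 0 to day 1, 1 of the 9 genes passed (10.0% of all genes), Igf2bp2. Without day 0 replicate 1 it was 4 of 9 (14.0% of all genes): Igf2bp2 was higher (0.40 ± 0.10, adjusted p = 0.0135), and Trim71 (-0.39 ± 0.10, adjusted p = 0.00909), Hmga2 (-0.60 ± 0.19, adjusted p = 0.0459) and Igf2bp1 (-0.50 ± 0.10, adjusted p = 0.00227) were lower. From day 1 to day 2, 2 of 9 passed (16.6% of all genes), Lin28a and Lin28b. From day 2 to day 3, 4 of 9 passed (14.4% of all genes), Lin28b, Hmga2 and Igf2bp2 upwards and L1td1 downwards. That count was 1 without day 3 replicate 2 or 3 and 2 without day 2 replicate 1 or 3. From day 3 to day 4 GFP-positive cells, 6 of 9 passed (37.9% of all genes), with Lin28a, Lin28b, Hmga2, Igf2bp2 and Igf2bp3 higher and L1td1 lower. To day 4 GFP-negative cells it was 3 of 9 (18.5% of all genes), with Hmga2 and Igf2bp2 higher and L1td1 lower. These 2 steps share the day 3 libraries. The rise of Lin28b into GFP-positive cells, 0.67 ± 0.20 (adjusted p = 0.0107), was 0.47 (adjusted p = 0.0845) without day 3 replicate 1. From day 4 to day 5, 3 of 9 passed in GFP-positive cells (9.80% of all genes), Hmga2 higher and Lin28a and L1td1 lower, and 2 of 9 in GFP-negative cells (10.2% of all genes), Lin28a and L1td1, both lower. Over days 0 to 3, 7 of 9 passed (43.6% of all genes), 2 of them, Lin28b (1.90 ± 0.20) and L1td1 (-1.65 ± 0.25), with a large change (12.0% of all genes). The count without day 0 replicate 1 was again 7 (50.1% of all genes), with Igf2bp1 (-0.96 ± 0.10, adjusted p = 1.76e-07) in place of Hmga2 (0.39 ± 0.19, adjusted p = 0.1). Lin28b was then at 2.09 ± 0.20 and L1td1 at -1.93 ± 0.25.

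Few of these genes passed the test between the sorted fractions with all libraries in the fit. On day 4, 2 of 9 passed (15.7% of all genes): L1td1 was at -3.24 ± 0.25 in GFP-positive against GFP-negative cells (adjusted p = 8.72e-09), and Igf2bp3 was higher by 0.48 ± 0.16 (adjusted p = 0.0474). On day 5, 3 of 9 passed (16.0% of all genes): L1td1 was at -3.72 ± 0.25 (adjusted p = 1.09e-09), and Lin28a (0.33 ± 0.11, adjusted p = 0.04) and Igf2bp2 (0.45 ± 0.13, adjusted p = 0.0192) were higher in GFP-positive cells. The calls other than those of L1td1 were close to the threshold. With single libraries left out, Igf2bp3 on day 4 had an adjusted p from 0.000777 to 0.138 and lost its call in 20 of 24 fits, and Lin28a on day 5 had one from 0.0158 to 0.143 and lost its call in 11 of 24. The differences stayed between 0.44 and 0.52 for Igf2bp3 and between 0.30 and 0.38 for Lin28a. Some calls were lost without a library outside the groups compared, as for Igf2bp3 without day 2 replicate 3 (adjusted p = 0.0583). Igf2bp2 on day 5 had an adjusted p of 0.0808 without GFP-negative replicate 3 and 0.117 without GFP-positive replicate 2. Igf2bp3 on day 5, whose libraries did not overlap, was higher in GFP-positive cells by 0.38 ± 0.16 (adjusted p = 0.126). It passed without day 0 replicate 1 (adjusted p = 0.00553) and without day 0 replicate 2 (adjusted p = 0.0393). A fit of the groups compared alone gave it an adjusted p of 0.0142. Igf2bp2 on day 4, also apart, was higher by 0.32 ± 0.13 (adjusted p = 0.114). Without day 0 replicate 1 its adjusted p was 0.0182. Hmga2 was the reverse case on day 4: all GFP-negative libraries were above all GFP-positive ones, at -0.44 ± 0.21 (adjusted p = 0.207), and on day 5 the fractions overlapped at 0.06 ± 0.21 (adjusted p = 0.915). The test of whether the gate difference changed from day 4 to day 5 gave 0 of 9 by limma (1.10% of all genes), with unadjusted p-values from 0.118 for Hmga2 to 0.950 for Lin28b, so none was under 0.05 either in this fit.

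**Figure D5:**
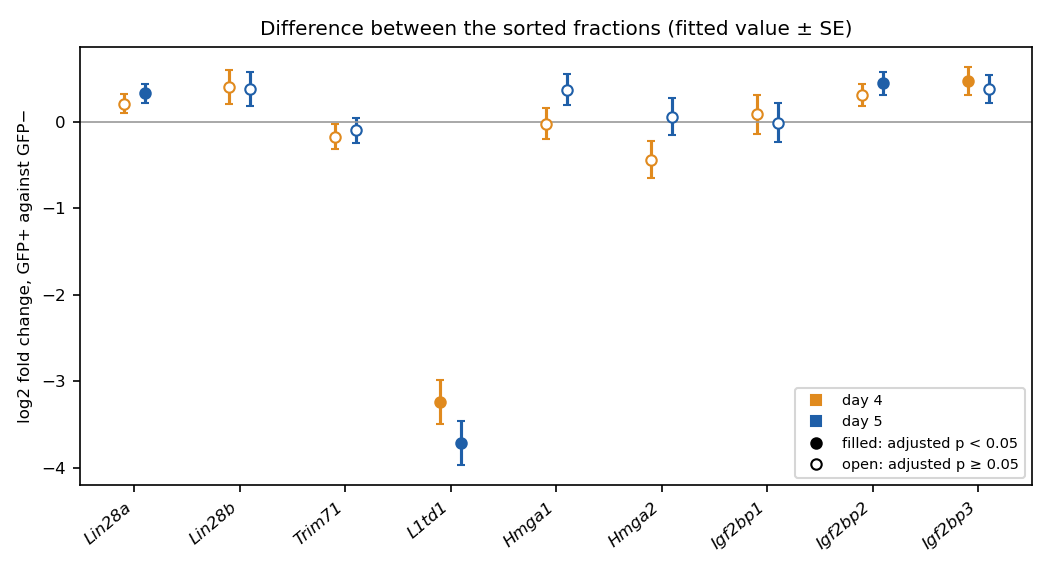
Fitted log2 fold change of GFP-positive against GFP-negative cells with its SE, for the 9 genes on day 4 (orange) and day 5 (blue), filled where the adjusted p is under 0.05. L1td1 lies at -3.24 and -3.72, and the other genes lie between -0.44 and 0.48.

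Markers of other cell types moved with the gates. The mesendoderm list (T, Eomes, Mixl1, Gsc, Foxa2 and Sox17) was lower in GFP-positive cells for 6 of 6 genes on both days, each with a large change (3.96% of all genes on day 4, 5.01% on day 5). Its summed count lay between 6277 and 9097 in day 4 GFP-negative and between 315 and 656 in GFP-positive cells, and on day 5 between 3203 and 4194 and between 203 and 285. The endothelial list (Pecam1, Cdh5, Kdr, Tek and Tal1) was lower for 5 of 5 on day 4 (15.7% of all genes passed) and 4 of 5 on day 5 (16.0%), with sums from 1671 to 2453 in day 5 GFP-negative and from 739 to 912 in GFP-positive cells. The eye field list (Rax, Pax6, Lhx2, Six3 and Six6) was higher for 5 of 5 on both days (15.7% and 16.0% of all genes passed), with sums from 54804 to 57307 in day 5 GFP-positive and from 8351 to 9094 in GFP-negative cells. The neural progenitor list (Sox1, Sox2, Nes and Pax6, the last also in the eye field list) had 3 higher and 0 lower on day 4, Pax6, Sox2 and Nes, and 1 higher and 1 lower on day 5, Pax6 and Sox1 (again 15.7% and 16.0% of all genes). Its sums lay between 27572 and 28786 in day 4 GFP-positive and between 15239 and 17476 in GFP-negative cells, and on day 5 between 29040 and 34999 and between 20436 and 21393. The neuron list (Tubb3, Dcx, Elavl3 and Neurod1) had 1 higher, Tubb3, and 1 lower, Neurod1, on both days (the same shares of all genes), with sums from 1765 to 1927 in day 5 GFP-positive and from 1543 to 1632 in GFP-negative cells. No gene of these lists was at 0 in all libraries of a group. Their part in the differences of the 9 genes was not tested.

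The machinery that makes and decays let-7 was described by a list of 17 genes, all tested. In day 5 GFP-positive cells against day 0, 8 were higher and 1 lower (61.4% of all genes passed), with a median log2 fold change of 0.45 where that of all genes was -0.06. This rested on day 0 replicate 1, in which the summed normalized count of the list was 42181, against 105708 and 93022 in the other day 0 libraries. Without it, 6 were higher and 5 lower (64.7% of all genes), and the median was -0.04. The large changes were those of Prkra (2.55 ± 0.27), a partner of Dicer, Dis3l2 (1.52 ± 0.12), the exonuclease that degrades uridylated pre-let-7, and Ago4 (1.51 ± 0.28), an Argonaute protein. Without that library they were at 3.10, 1.47 and 1.46, the last 2 below the size called large. Tut4 and Tut7, the enzymes that uridylate pre-let-7, were higher by 0.67 ± 0.13 and 0.42 ± 0.15, and Tarbp2, another partner of Dicer, was at -1.02 ± 0.14. With that library left out these were 0.86, 0.14 (adjusted p = 0.169) and -1.23. Drosha, Dicer1, Xpo5, Ago2, Ago3, Tnrc6a and Khsrp did not pass in any of the 13 comparisons with all libraries in the fit. Drosha, the nuclear enzyme that cuts microRNA precursors, had a normalized count of 3933 in the lowest day 0 library and of 16638 and 20704 in the others. In day 5 GFP-positive cells, 4 of these 7 were lower than day 0 once replicate 1 was left out, namely Drosha (-0.62 ± 0.11, adjusted p = 3.62e-05), Khsrp (-0.65 ± 0.11, adjusted p = 3.47e-05), Dicer1 (-0.44 ± 0.12, adjusted p = 0.00317) and Xpo5 (-0.32 ± 0.08, adjusted p = 0.00238). With all libraries, neither gate comparison had a gene of this list past the threshold (15.7% of all genes on day 4, 16.0% on day 5). Of the host transcripts, Mir99ahg and Mir100hg had group means of at most 20.4 and 69.0 normalized counts, while Wdr82 and Huwe1 encode proteins of their own.

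Other widely described let-7 targets were a list of 18 genes, all tested. In day 5 GFP-positive cells against day 0, 10 were higher and 2 lower (61.4% of all genes passed; median 0.98, all genes -0.06), with 8 large changes upwards and 1 downwards (26.2% of all genes). In GFP-negative cells 10 were higher and 2 lower (59.3% of all genes; median 1.01, all genes -0.04). The counts without day 0 replicate 1 were 9 higher and 6 lower in GFP-positive (64.7% of all genes, median 0.87) and 10 higher and 5 lower in GFP-negative cells (62.2%, median 0.91). Plagl2, a zinc finger factor, was higher by 3.13 ± 0.17 in GFP-positive cells, Thbs1, the secreted thrombospondin, by 2.92 ± 0.39, and Ccnd2, a cyclin of the G1 phase, by 2.90 ± 0.48. Cdk6, its kinase partner, was at -2.37 ± 0.30 in GFP-positive cells and differed between the gates, by -2.27 ± 0.30 on day 4 and -2.07 ± 0.30 on day 5. Mycn fell by 1.00 ± 0.13 on the log2 scale in GFP-positive cells. Without that library the GFP-positive differences were 2.83 for Plagl2, 3.66 for Thbs1, 2.64 for Ccnd2, -2.94 for Cdk6 and -1.19 for Mycn. On the gates the list was split, with 2 higher and 3 lower in GFP-positive cells on day 4 (15.7% of all genes passed) and 0 higher and 3 lower on day 5 (16.0%).

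Described RNA cargo of the Igf2bp proteins was a list of 5 genes, Igf2, H19, Actb, Cd44 and Myc, of which Myc is also among the let-7 targets. In day 5 GFP-positive cells against day 0, 2 were higher and 2 lower (61.4% of all genes passed), and 2 higher and 3 lower without day 0 replicate 1 (64.7%). Igf2, the growth factor, was higher by 1.87 ± 0.23, and Cd44, an adhesion receptor, by 2.67 ± 0.28. H19, a long non-coding RNA, was at -1.15 ± 0.22 in GFP-positive cells and higher by 1.18 ± 0.22 in GFP-negative cells, and the gates differed by -2.33 ± 0.22 on day 5. Leaving out day 0 replicate 1 put Igf2 at 1.90, Cd44 at 3.10 and H19 at -1.37 in GFP-positive cells.

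The genes whose log2 values were most alike to each member over the 24 libraries are given as a description, since all libraries share 1 time course. Lin28b was nearest to Fam102b (Pearson r = 0.988), Hmga2 to Zc3hav1l, Slit2 and Nrarp (r = 0.994, 0.984 and 0.977), Igf2bp2 to Ablim1 (r = 0.986) and Igf2bp3 to Mex3a, Dzip1 and Usp47 (r = 0.987, 0.986 and 0.985). L1td1 was nearest to Fgf4, Cbx7 and Utf1 (r = 0.995, 0.993 and 0.992). Lin28a was nearest to Jph3 (r = 0.975), Trim71 to Cnnm2 (r = 0.962) and Igf2bp1 to Clstn3 (r = 0.967). Hmga1 was nearest to its copy Hmga1b (r = 0.943), followed by Ube4b (r = 0.914).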

How the data were processed

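RNA of 24 libraries from OV organoids was analysed, with groups and replicate numbers from the labels. The deposited values are a normalized signal: per the labels and the methods, the authors pseudo-aligned reads with kallisto 0.43.1 to mm10 transcripts, passed the estimates to DESeq2 and divided them by its normalization factors. Strandedness and the splitting of shared reads are not given in the sources used here. The authors' call columns, which hold their own lists of changed genes, were not used. Within a tolerance of 0.1 of a read, 45.8% to 76.8% of values up to 20 reads were whole multiples of the estimated worth of 1 read, and the values were therefore not treated as reads in any count model.

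Genes reaching a value of 10 in 3 or more libraries (21005) were put on the scale log2(value + 1). All 24 libraries entered 1 linear model per gene (limma 3.58.1, R 4.3.3, moderated with a mean-variance trend) with a median residual SD of 0.308 (log2) and with Benjamini-Hochberg adjustment within each of 13 contrasts. The thresholds for a large change follow the study. The fit was tested on simulated data in which 200 of the more highly expressed genes were changed. Of changes by 1 on the log2 scale, 68% passed for day 4 GFP-positive against day 3 and 76.5% for the day 5 gates. Of changes by 2, 96.5% and 96% passed, and changes smaller than 1 were not simulated. The methods describe the 3 replicates as biological triplicates of organoid cultures, all from 1 cell line. Per-kb levels divide by the longest coding transcript of GENCODE M21 (mm10, all 9 genes at the same start and end as in the table). Sequences are from RefSeq (GRCm38.p6) and that annotation's genome. Shared 31-letter words were counted between annotated transcripts. Python 3.11.15 with pandas 2.3.3 was used.

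The genes and lists were chosen with earlier results of these data known. The text names the 9 genes, up to 3 genes per list with the largest changes, the genes of some counts of 5 or fewer, the genes most alike by Pearson r, and genes that share sequence or overlap. Tut4, Tut7, Mycn, Pou5f1, Drosha and the other genes of a list named as not passing, or as passing without day 0 replicate 1, were added after their values were seen. Alternatives were other pseudocounts, filters, quantile normalization, eBayes without trend, the compared groups only, a replicate block, a looser threshold and leaving out each library. A block within each sorted day, and lists and shares without day 0 replicate 1, were added after the data were seen. Counts for the other RNA-binding proteins are not reported here.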

Additional observations from a re-analysis of the deposited data

How the results depend on the processing

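Pseudocounts of 0.5 and 5 left all 117 tests of the 9 genes in 13 comparisons in the same direction and on the same side of an adjusted p of 0.05. Counts past it moved by over 1.5 times as follows. Fitted on the compared groups only, they were 0 for day 1 against day 0, 5 for day 2 against day 1 and 4 for day 3 against day 0, and large changes were 1 for day 4 GFP-negative against day 3, 0 for day 5 against day 4 GFP-positive and 0 for day 3 against day 0; these fits hold fewer samples. Under an absolute log2 fold change above 1 and an adjusted p under 0.05, large changes were 1 for day 3 against day 2, 3 for day 4 GFP-positive against day 3, 2 for day 5 against day 4 GFP-positive and 4 for day 3 against day 0, by construction of the looser rule. With no filter, or without trend, 1 gene passed between the day 4 gates, as Igf2bp3 had an adjusted p of 0.0814 and 0.0685, and the cause was not tested. With no filter Lin28a also missed 0.05 on the day 5 gates (0.0857) and from day 4 to day 5 in GFP-positive cells (0.0676).

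Leaving out each library in turn gave 1 to 4 genes past 0.05 for day 1 against day 0, 2 to 3 for day 2 against day 1, 1 to 5 for day 3 against day 2, 5 to 7 for day 4 GFP-positive and 3 to 4 for day 4 GFP-negative against day 3. From day 4 to day 5 it gave 2 to 3 in GFP-positive and 2 to 4 in GFP-negative cells, and between the gates 1 to 3 on day 4 and 1 to 4 on day 5. Against day 0 it gave 6 to 7 for day 3 and 8 to 9 for either day 5 fraction. Large changes were 1 to 2 for day 4 GFP-negative against day 3, 0 to 1 for day 5 against day 4 GFP-negative, 1 to 2 for day 3 against day 0 and 4 to 5 for day 5 GFP-negative against day 0.

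Differences that changed sign had no adjusted p under 0.05 in the fit reported. With quantile normalization these were Hmga1 at 0.0034 from day 2 to day 3, 0.0047 from day 4 to day 5 in GFP-positive cells and 0.15 for day 5 GFP-negative against day 0, Igf2bp1 at 0.037 from day 4 to day 5 in GFP-negative cells, Hmga2 at -0.095 on the day 5 gates, and Lin28a at -0.023 and Trim71 at -0.013 for the change of the gate difference. The sum of Hmga1 and Hmga1b, added after the data were seen, gave 0.023 on the day 4 gates. With 1 library left out, the day 1 against day 0 differences ranged from -0.39 to 0.053 for Trim71, -0.32 to 0.17 for L1td1, -0.020 to 0.50 for Hmga1, -0.50 to 0.21 for Igf2bp1 and -0.12 to 0.39 for Igf2bp3. Trim71 ranged from -0.12 to 0.0086 from day 1 to day 2. Hmga1 ranged from -0.078 to 0.040 from day 4 to day 5 in GFP-positive cells, -0.10 to 0.098 on the day 4 gates, -0.069 to 0.45 for day 5 GFP-positive and -0.44 to 0.072 for day 5 GFP-negative against day 0. Igf2bp2 ranged from -0.084 to 0.082 from day 4 to day 5 in GFP-negative cells. On the day 5 gates Hmga2 ranged from -0.050 to 0.16 and Igf2bp1 from -0.065 to 0.076, and the change of the gate difference ranged from -0.19 to 0.13 for Lin28b.

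Quantile normalization moved the median log2 fold change of all genes from -0.063 to 0.085 for day 5 GFP-positive against day 0. Under it Trim71 for day 3 against day 0 (-0.31, adjusted p = 0.074), Igf2bp1 for day 5 GFP-negative against day 0 (-0.57, adjusted p = 0.0544) and Lin28a on the day 5 gates (0.23, adjusted p = 0.131) no longer passed by limma, while Hmga1 for day 3 (0.53, adjusted p = 0.0148) and day 5 GFP-positive (0.40, adjusted p = 0.0483) against day 0, Igf2bp3 from day 1 to day 2 (0.41, adjusted p = 0.0408) and for day 4 GFP-negative against day 3 (0.53, adjusted p = 0.00766) and Hmga2 from day 4 to day 5 in GFP-negative cells (0.73, adjusted p = 0.0214) passed in addition. The cause was not tested.

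Pairing by replicate number was not seen in the values, and neither the labels nor the methods say whether a number marks a shared pool of organoids. Over 84 pairs of same-numbered samples the deviations from the group means had a mean correlation of -0.000542, from -0.284 to 0.401. With the replicate block, Igf2bp3 in day 4 GFP-negative against day 3 (0.45, limma adjusted p = 0.0427) and Hmga2 in day 5 against day 4 GFP-negative cells (0.58, limma adjusted p = 0.0386) passed in addition, giving 4 and 3 genes, and the counts in the other 11 comparisons did not move. For the 2 fractions of a day, the 6 same-numbered pairs had correlations from -0.108 to 0.147 and the 12 other pairs from -0.212 to 0.184. A replicate block within each sorted day, over the 12 sorted libraries and added after the data were seen, gave 3 genes on each day and 0 for the change of the gate difference (3864, 3767 and 399 of all 20996 genes tested). It added Hmga2 on day 4 (-0.44, limma adjusted p = 0.0139) and Igf2bp3 on day 5 (0.38, limma adjusted p = 0.00918), and Lin28a on day 5 did not pass (0.33, limma adjusted p = 0.0619).

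A count model was not run, as whole reads were not recovered. Few reads stood behind L1td1 in GFP-positive cells, Mir99ahg, Mir100hg and the let-7 precursors. Of the 3 genes most alike over 24 libraries, Zc3hav1l and Nrarp for Hmga2, Fam102b for Lin28b, Hmga1b for Hmga1 and Usp47 for Igf2bp3 were so over the 8 group means too, and 0 for the other members.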

Other observations

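Other high mobility group proteins, which bind DNA or nucleosomes, were a list of 7 genes, all tested. In day 5 GFP-positive cells against day 0, 4 were higher and 0 lower by limma (61.4% of all genes passed in either direction; median 0.99, all genes -0.06). Leaving out day 0 replicate 1 gave 6 higher and 0 lower (64.7% of all genes, median 1.08), with Hmgb1 (0.88 ± 0.21) and Hmgn1 (0.33 ± 0.11) added. With all libraries Hmgn3 was higher by 4.16 ± 0.34 (log2 fold change ± SE) and Hmgb3 by 2.39 ± 0.18, both large changes, Hmgn5 by 1.18 ± 0.25 and Hmgn2 by 0.99 ± 0.19, while Hmgb1, Hmgb2 and Hmgn1 did not pass. The first 4 were at 4.83, 2.59, 1.41 and 1.08 without day 0 replicate 1.

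The median of 9 other RNA-binding proteins of progenitor cells was 0.09 in the same comparison, and -0.06, as for all genes, without day 0 replicate 1. Msi1, which marks neural progenitors, was higher by 2.94 ± 0.12, Msi2 by 0.54 ± 0.12 and Pum2 by 0.40 ± 0.12, and Fxr1 was at -0.56 ± 0.12 and Syncrip at -0.38 ± 0.15. In the same order these were 2.84, 0.35, 0.26, -0.43 and -0.60 without day 0 replicate 1.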
